A study of Homo sapiens with 33 samples.

Results

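The genes described here are 27 genes of cholesterol synthesis and of the sterol-sensing SREBP system, out of 78932 gene identifiers in the deposited tables. They were taken by name, and each of the 27 symbols matched 1 Ensembl identifier. Of these genes, 19 encode enzymes that build cholesterol or its isoprenoid precursors, 7 belong to the SREBP system, and STARD4 encodes a sterol carrier. Whether a gene could be tested depended on its level: 24 of the 27 passed the minimum of a mean of 1 TPM (a transcript level scaled for gene length and library depth) in the sorted libraries, and GGPS1, NSDHL and INSIG1 did not.

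Cholesterol is made from acetyl-CoA through mevalonate, isoprenoid phosphates, squalene and lanosterol, and liver cells are a main site of this synthesis. When sterols in the endoplasmic reticulum are low, the carrier protein SCAP takes SREBP precursors to the Golgi apparatus, where the proteases encoded by MBTPS1 and MBTPS2 release a transcription factor that raises the genes of the pathway. When sterols are high, the INSIG proteins hold SCAP and SREBP in the endoplasmic reticulum.

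The study was made in HepG2, an established human liver tumour cell line, and joined replication timing with gene expression in cells sorted by stage of the cell cycle. RNA was measured in 12 libraries from 6 sorted fractions and in 3 libraries of bulk cells, and 18 DNA libraries for replication timing were not analysed here. The sorted fractions were G1, 4 successive parts of S phase (S1, S2, S3 and S4) and G2, each with 2 libraries numbered 2 and 3 in the labels, and the bulk libraries were numbered 1 to 3. The labels name no treatment and no separate cultures, so all groups are the same line and the p-values reflect the spread from library to library, which may be technical. Sorted RNA was prepared with a kit for total RNA at very low input and bulk RNA with a kit for mRNA, so in every comparison of sorted with bulk libraries the sorting and the kit cannot be told apart. Both kinds of library are labelled as nuclear RNA.

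The TPM steps gave 6129026 to 18485359 reads in the sorted libraries and 22340963 to 24423744 in the bulk libraries. Protein-coding genes held 11.2% to 15.5% of the TPM in sorted libraries but 76.7% to 77.6% in bulk libraries, so levels are given below as rescaled TPM, with the protein-coding genes of each library set to a sum of 1000000. Of 8 hepatocyte markers, 7 were above 1 TPM in every library. The eighth, APOB, was listed at 0.0362 to 0.318 TPM, so a listing near 0 in these tables cannot be read as absence of a transcript. Of 5 fibroblast markers, COL1A2, COL3A1, DCN and LUM stayed under 1 TPM in all 15 libraries, as did PTPRC of leukocytes, while PDGFRB was above 1 TPM in every library and reached 10.4 TPM. The 4 endothelial markers summed to 0.858 to 3.19 TPM in sorted and 0.585 to 0.898 TPM in bulk libraries. LYZ stood at 174 to 441 TPM in sorted and 1801 to 1962 TPM in bulk libraries. In G2 against G1, the mitotic genes PLK1 and CCNB1 differed by 1.91 ± 0.45 and 1.83 ± 0.51 on the log2(TPM + 1) scale (SE, 2 libraries a fraction). Even these 2 genes did not pass limma's test after Benjamini-Hochberg adjustment over all genes (adjusted p = 1). Much of their difference was already present in S against G1 (PLK1 1.35, CCNB1 1.28), and in G2 against S both differed by 0.56. CDC20 (1.65) and TOP2A (1.30) were also higher in G2 than in G1, and MCM5 (-0.22) and CCNE2 (-0.42) were lower.

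Levels differed widely between the steps of the pathway. TPM divides reads by gene length, which the TPM steps put at 1002 bases for PMVK and 10054 for SC5D. Differences in level between genes therefore also depend on the lengths that the authors used. In the 12 sorted libraries HMGCS1, which makes HMG-CoA from acetyl-CoA, had the highest levels, with a lowest, median and highest rescaled TPM of 506, 649 and 868. ACAT2, which joins acetyl-CoA units in the step before, was lower, at 231, 295 and 474. Among the enzymes from mevalonate to the isoprenoids, FDPS (farnesyl diphosphate synthase) stood at 511, 560.0 and 719 and MVD (mevalonate diphosphate decarboxylase) at 301, 401 and 673.

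IDI1, which interconverts the pair of isopentenyl isomers, had 93.9, 129 and 220.5 as its lowest, median and highest rescaled TPM. MVK, mevalonate kinase, had 50.8, 81 and 124. PMVK, the next kinase, was lower and more uneven, at 23.5, 35.8 and 59.8, from only 18 to 64 reads a library. GGPS1, which takes the isoprenoid path away from sterols, was the lowest of these enzymes with 4.08, 8.22 and 9.78.

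At the entry to the sterols, SQLE (squalene epoxidase) reached a median of 387 rescaled TPM in the sorted libraries, with a range of 341 to 499. LSS, which closes the ring to lanosterol, had a median of 115 and a range of 85.7 to 153. FDFT1, squalene synthase, had a median of 73.2 and a range of 59.7 to 125. The squalene step thus stood lower per gene length than the epoxidase that follows it in each of the 12 libraries.

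Among the enzymes from lanosterol to cholesterol, MSMO1 and EBP had the highest sorted medians, 296 and 239 rescaled TPM. TM7SF2 (139.7), DHCR7 (130.3), HSD17B7 (94.6) and SC5D (65.2) followed, and the demethylase gene CYP51A1 was low, with a median of 23.9. NSDHL, which acts on the same carbon as MSMO1, was listed at 0 TPM in 13 of 15 libraries, with 0.0521 TPM in S1 replicate 3 and 0.0824 TPM in bulk replicate 1.

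Within the SREBP system, SREBF2, the member known for driving cholesterol genes, had a sorted median of 234 rescaled TPM and SREBF1, known for driving fatty acid genes, a median of 156. INSIG2, an anchor of the SCAP complex, stood at a median of 189 and SCAP at 124. The proteases differed, with 149 for MBTPS1 and 15.3 for MBTPS2. INSIG1, the other anchor and itself a target of SREBP, was listed with 8 and 4 reads in the S2 libraries, 2 and 4 in the S3 libraries, 1 in G2 replicate 2 and 0 in the other 10 libraries. A count of 0 allows up to 3 reads, or 0.0483 to 0.148 TPM for INSIG1 over the 15 libraries, for counting error only.

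RefSeq annotation of GRCh38.p14 places 15 of the 27 genes over another annotated gene, among them IDI1 (chromosome 10, 1039152 to 1056704, over IDI2-AS1 and WDR37), STARD4 (chromosome 5, 111496033 to 111512535, over STARD4-AS1) and MVK (chromosome 12, 109573272 to 109598125, over MMAB). FDFT1, LSS and CYP51A1 are also among these 15 genes. The sources used here do not say whether the authors' counting used the strand, or kept or dropped reads shared with a neighbour. The values of all 15 are thus uncertain in either direction. INSIG2 (chromosome 2, 118088471 to 118110997), HMGCS1 (chromosome 5, 43287470 to 43313412) and MVD (chromosome 16, 88651940 to 88663091) overlap no other annotated gene.

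Promoter sequences from RefSeq on GRCh38.p14, from 250 bases before to 50 bases after each start, were at hand for 24 of the 27 genes, in 32 windows. Each was searched on both strands for TCACNCCAC, a word of the sterol regulatory element type, for CCAAT (bound by NF-Y), CACGTG (an E-box) and GGGCGG (bound by Sp1). CCAAT was in 59.4% of the windows and in 17 of 24 genes, against 34.6% of all 35116 windows. GGGCGG was in 84.4% against 45% and CACGTG in 15.6% against 7.26%. TCACNCCAC was in SREBF2 only, and in 1.13% of all windows. None of the words contains another, and a match describes letters, not a bound site.

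The promoters of 5 genes are printed because their genes differed together between the replicate numbers, HMGCS1, MVD and STARD4 one way and SREBF2 and INSIG2 the other. Each line covers 200 to 41 bases before the start, 5′ to 3′ on the gene's strand, with CCAAT (or ATTGG, its reverse complement) and TCACNCCAC in capitals. HMGCS1 lies at chr5:43313453-43313612 (minus strand), MVD at chr16:88663132-88663291 (minus), STARD4 at chr5:111512576-111512735 (minus), SREBF2 at chr22:41832905-41833064 (plus) and INSIG2 at chr2:118088271-118088430 (plus).
HMGCS1: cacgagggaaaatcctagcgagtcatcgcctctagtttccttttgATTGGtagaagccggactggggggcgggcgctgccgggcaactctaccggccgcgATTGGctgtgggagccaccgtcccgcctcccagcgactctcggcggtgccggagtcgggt
MVD: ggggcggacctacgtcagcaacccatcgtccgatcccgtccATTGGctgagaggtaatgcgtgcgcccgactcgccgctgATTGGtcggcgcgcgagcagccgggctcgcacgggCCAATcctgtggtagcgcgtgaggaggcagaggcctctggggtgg
STARD4: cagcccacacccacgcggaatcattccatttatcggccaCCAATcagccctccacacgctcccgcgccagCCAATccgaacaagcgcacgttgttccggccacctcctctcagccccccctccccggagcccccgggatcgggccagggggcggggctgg
SREBF2: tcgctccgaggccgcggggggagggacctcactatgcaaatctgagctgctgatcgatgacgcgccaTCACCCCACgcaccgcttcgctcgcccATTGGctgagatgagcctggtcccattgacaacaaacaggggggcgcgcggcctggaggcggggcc
INSIG2: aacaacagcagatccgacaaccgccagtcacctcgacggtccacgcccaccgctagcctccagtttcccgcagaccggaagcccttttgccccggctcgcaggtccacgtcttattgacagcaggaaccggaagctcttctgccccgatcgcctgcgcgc
The stretch of MVD holds 3 CCAAT words, those of HMGCS1 and STARD4 2 each, that of SREBF2 1 beside its TCACNCCAC match, and that of INSIG2 0.

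The first question was whether the pathway moved through the cell cycle. Without the replicate number in the model, no member passed the test for a change between fractions. By limma's F test over the 6 fractions, 0 of 24 members passed an adjusted p of 0.05, where 0.0176% of all 17022 genes tested did, and 0 members had an unadjusted p under 0.05. On recovered reads, limma's voom called 0 members as well. With the replicate number as a block on these reads, an alternative chosen after seeing the data, IDI1 (adjusted p = 0.0352) and STARD4 (adjusted p = 0.0253) were called, beside 3.91% of all genes. The block called 0 members on TPM as deposited or rescaled. The widest range of fraction means belonged to PMVK (0.87 on the log2(TPM + 1) scale, adjusted p = 1), TM7SF2 (0.64), STARD4 (0.62) and LSS (0.60). SREBF1 spanned 0.43, INSIG2 0.41 and SREBF2 0.30.

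**Figure D1:**
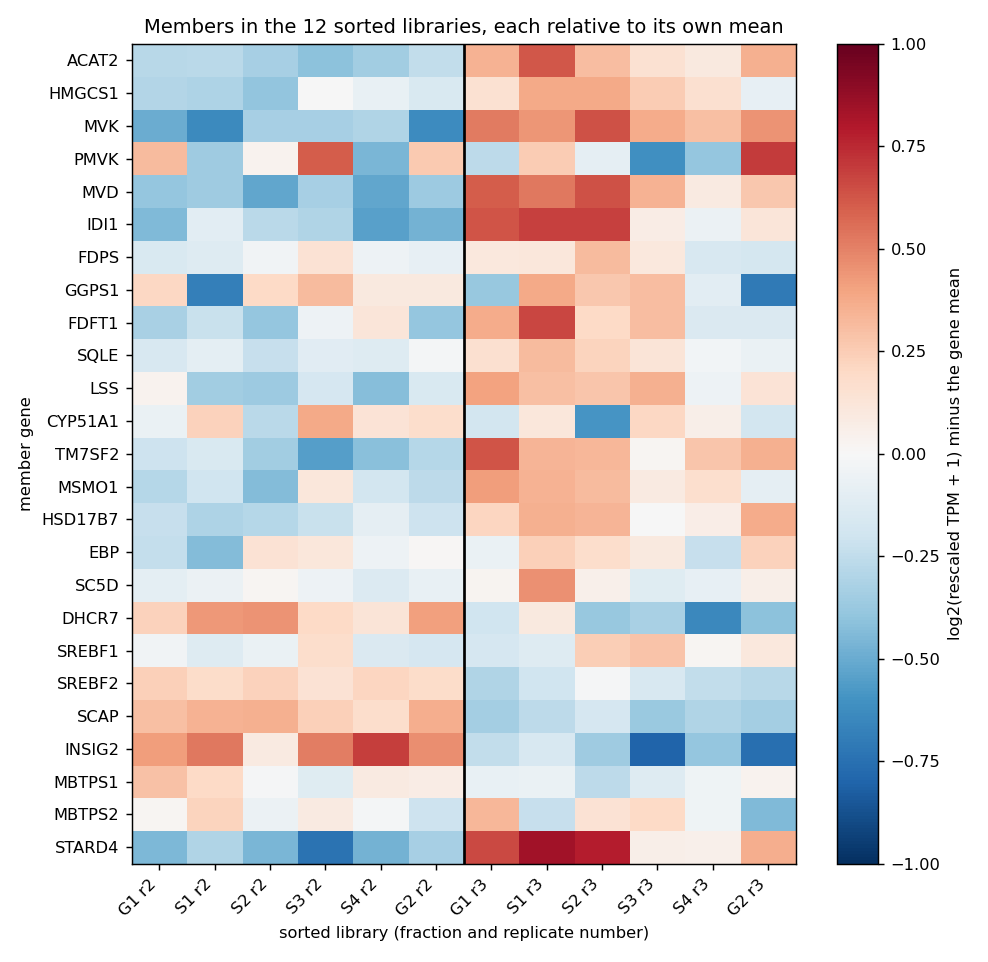
Heat map of 25 members (rows, in pathway order) in the 12 sorted libraries (columns, replicate 2 left of the black line and replicate 3 right), coloured by log2(rescaled TPM + 1) minus the mean of the gene over the 12 libraries. Colour changes more across the black line than between fractions of a replicate number for MVD, MVK, STARD4, SCAP and INSIG2.

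The fractions followed one another without a shared step. For IDI1, the G1, S1, S2, S3, S4 and G2 libraries of replicate 2 had 100.5, 127, 114, 111, 93.9 and 98.6 rescaled TPM. In replicate 3 the values were 213, 220.3, 220.5, 144, 132 and 149. IDI1 was thus lower in S4 than in S1 under both numbers, but all 6 values of replicate 3 lay above all 6 of replicate 2.

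STARD4, whose protein moves sterols between membranes, had 125, 138, 124, 102, 123 and 135 rescaled TPM in the same order in replicate 2. Its replicate 3 libraries had 271, 308, 296, 178, 178 and 220.2. Again the numbers did not overlap, and the last parts of S were lower than the first under both.

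DHCR7, which performs the last reduction to cholesterol, showed 141, 163, 165, 139, 132 and 160.3 rescaled TPM in replicate 2. In replicate 3 it showed 105, 129, 92.5, 95.9, 76.8 and 90.6, lower than replicate 2 in each fraction. For the slope over S1 to S4, limma gave IDI1 -0.17 ± 0.15 and STARD4 -0.16 ± 0.18 per step on the log2(TPM + 1) scale (SE, adjusted p = 1).

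DHCR7 (-0.14 ± 0.12) and ACAT2 (-0.08 ± 0.14) came next in size for this slope, and SREBF1 (0.05), SREBF2 (0.01) and INSIG2 (0.01) were near 0. Of 24 members, 10 slopes were above 0 and 14 below, 0 passed limma's test at an adjusted p of 0.05 or at an unadjusted p of 0.05, and 0.00% of all genes were called. The member median was -0.02 and that of all genes 0.04, both on TPM as deposited. With median-ratio scaling these medians were -0.0643 for the members and -0.000961 for all genes. With rescaled TPM they were -0.0309 and 0.0211, and on recovered reads without the block -0.0685 and -0.00357. The member median thus lay below that of all genes under each scaling, with 0 members called. On recovered reads with the replicate block, limma called the slopes of 4 members lower, beside 2.71% of all genes: IDI1 (-0.25 ± 0.05, adjusted p = 0.00420), STARD4 (-0.25 ± 0.05, adjusted p = 0.00331), DHCR7 (-0.20 ± 0.04, adjusted p = 0.0120) and ACAT2 (-0.14 ± 0.04, adjusted p = 0.0473).

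**Figure D2:**
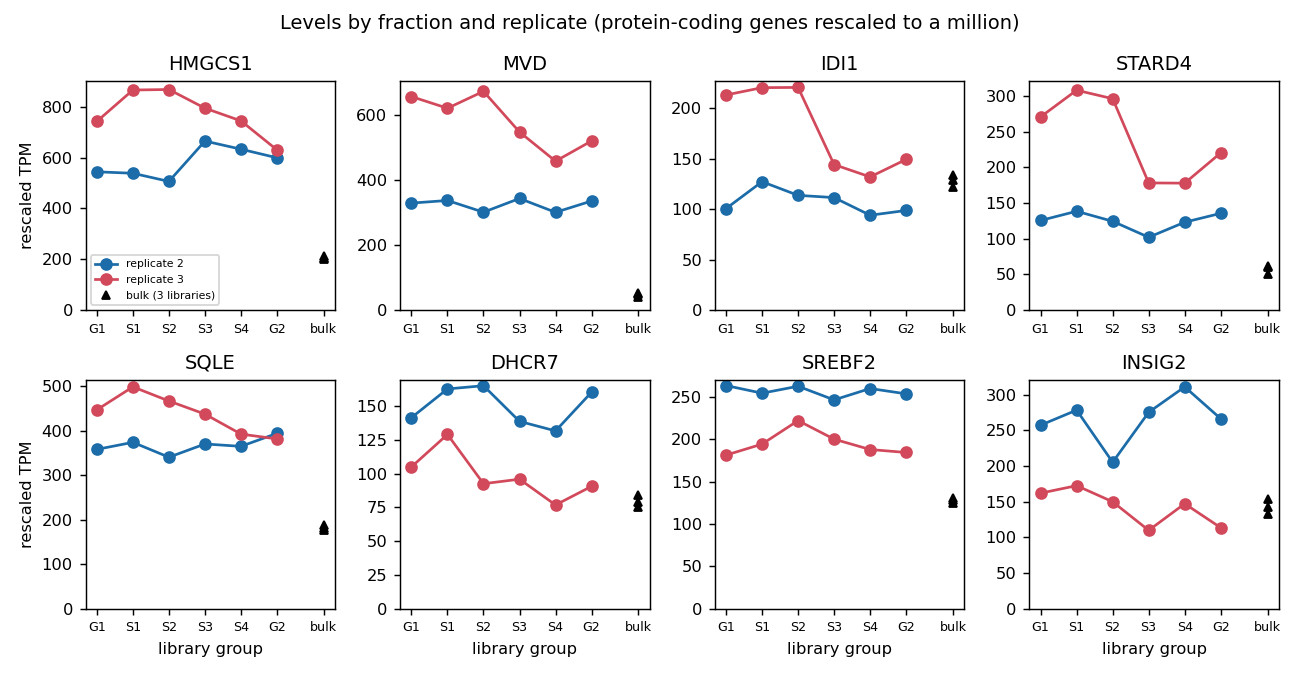
Rescaled TPM (vertical axes, starting at 0) of 8 members in the 6 sorted fractions, with lines joining the libraries of replicate 2 (blue) and replicate 3 (red), and the 3 bulk libraries as black triangles. MVD, IDI1 and STARD4 are higher in replicate 3 in every fraction, and DHCR7, SREBF2 and INSIG2 are lower.

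In S against G1, all 24 members had a lower mean in S, but so had most genes. The member median was -0.19 on the log2(TPM + 1) scale and the median of all genes -0.20. After rescaling to protein-coding genes the member median was -0.01 and that of all genes -0.04, and with median-ratio scaling they were 0.00390 and -0.03, so the sign shared by the members did not outlast a change of scaling. TM7SF2, a sterol reductase gene, differed by -0.44 ± 0.35 and LSS by -0.43 ± 0.28 (SE).

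MBTPS1 (-0.33 ± 0.23) and STARD4 (-0.31 ± 0.44) followed, with an adjusted p of 0.816 and 0.853 by limma. SREBF1 differed by -0.05 ± 0.24, SREBF2 by -0.14 ± 0.26 and INSIG2 by -0.25 ± 0.43. By limma 0 members passed, with 0 at an unadjusted p under 0.05, and 0.00% of all genes passed, with 891 at an unadjusted p under 0.05. In this model, which leaves out the replicate number, the 95% intervals of the members reached from -1.30 for STARD4 to 0.79 for MVK. Their width thus includes the difference between the replicate numbers. With the replicate block on recovered reads, STARD4 differed by -0.11 ± 0.12 and MVK by 0.03 ± 0.11 (SE).

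G2 against G1 gave 5 members above 0 and 19 below, with a median of -0.12 beside -0.08 for all genes. MBTPS2, the second protease of SREBP release, differed by -0.40 ± 0.27 and PMVK by 0.34 ± 0.43 on the log2(TPM + 1) scale (SE). FDFT1 and IDI1 each differed by -0.32, with SEs of 0.34 and 0.46. The regulators lay at 0.01 (SREBF1), -0.08 (SREBF2) and -0.29 (INSIG2). By limma 0 members were called, also at an unadjusted p under 0.05, where 0.00587% of all genes were called.

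This median moved when 1 G2 library was left out. It was 0.10 without G2 replicate 2 and -0.34 without G2 replicate 3. Either fit holds 1 replicate number in G2 but both in G1, so its median also carries the difference between the numbers. With all libraries and the replicate block, the median was -0.12 on TPM as deposited and -0.03 on recovered reads.

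G2 against S gave a member median of 0.08 and a median of 0.12 over all genes, with 17 members above 0 and 7 below. PMVK had the largest difference, 0.63 ± 0.34 on the log2(TPM + 1) scale (SE, unadjusted p = 0.0984 by limma), from the low read numbers given above. EBP (0.23 ± 0.23), HSD17B7 (0.22 ± 0.29) and TM7SF2 (0.22 ± 0.35) followed. SREBF1 and SREBF2 both lay at 0.06 and INSIG2 at -0.04. By limma 0 members passed, with 0 at an unadjusted p under 0.05, where 0.00587% of all genes passed. The member median was 0.37 without G2 replicate 2 and -0.21 without G2 replicate 3, again with 1 replicate number left in G2. With all libraries and the replicate block it was 0.08 on TPM as deposited and -0.05 on recovered reads.

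**Figure D3:**
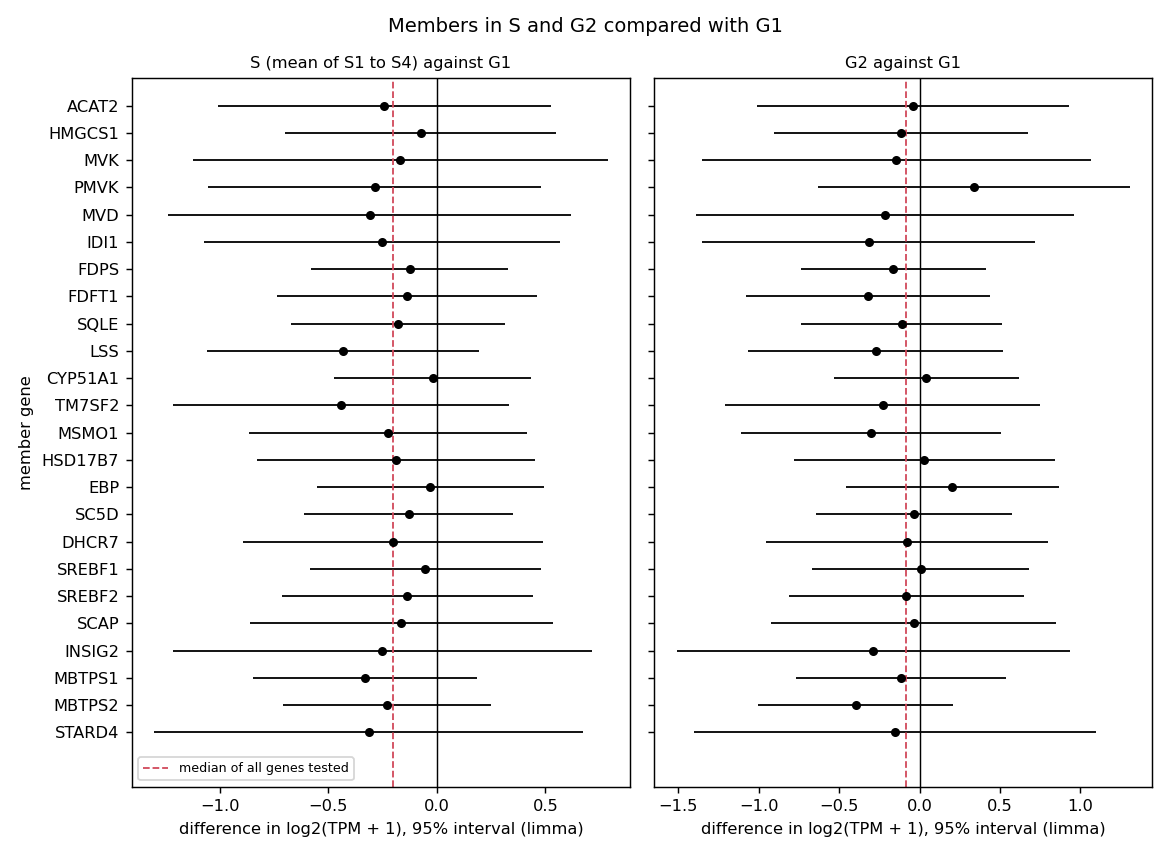
Difference in log2(TPM + 1) of 24 members (rows) between S and G1 (left) and between G2 and G1 (right), as points with 95% intervals from limma, with the median of all genes tested as a dashed red line. Every interval includes 0, and the members lie around the median of all genes (-0.20 and -0.08).

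Many members differed in the same direction between the replicate numbers in every fraction. What the numbers 2 and 3 mark is not given in the labels, so these values are a description, with no test. In replicate 3, 11 of 24 members (45.8%) had a higher TPM than in replicate 2 in all 6 fractions, where 19.8% of all genes tested had, and 4 of 24 (16.7%) were lower in all 6, where 7.57% of all genes were. The 11 were ACAT2, HMGCS1, MVK, MVD, IDI1, FDFT1, SQLE, LSS, TM7SF2, HSD17B7 and STARD4, that is, 10 enzymes and the sterol carrier.

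The 4 lower genes were DHCR7 and 3 genes of the SREBP system, SREBF2, SCAP and INSIG2. With rescaled TPM, 9 of 25 members (36%) were higher in all 6 fractions, beside 30.2% of all genes, and 6 (24%) were lower, beside 10.8%. On that scale the share of higher members is near the background. FDFT1 and SQLE left the higher group, and CYP51A1 and MBTPS1 joined the lower group. With median-ratio scaling 7 of 24 members were higher, beside 17.4% of all genes, and 6 lower, beside 16.7%. HMGCS1 and HSD17B7, higher in 5 of 6 fractions, left the higher group there. ACAT2, MVK, MVD, IDI1, LSS, TM7SF2 and STARD4 were higher, and DHCR7, SREBF2, SCAP and INSIG2 lower, in all 6 fractions under each of the 3 scalings.

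For MVD, the G1, S1, S2, S3, S4 and G2 libraries had 329, 337, 301, 343, 301 and 336 rescaled TPM in replicate 2. In replicate 3 they had 657, 621, 673, 548, 458 and 520.2. The numbers did not overlap. The libraries of replicate 2 lay close together, while those of replicate 3 spread from 458 to 673.

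MVK, the gene of mevalonate kinase, had 56, 50.8, 62.9, 62.9, 64.2 and 51 rescaled TPM in replicate 2 and 114, 108, 124, 103, 97.7 and 108 in replicate 3. HMGCS1 had 544, 538, 506, 665, 633 and 599 in replicate 2 and 742, 866, 868, 794, 744 and 630.2 in replicate 3. For MVK the numbers were again apart, but for HMGCS1 the S3 and S4 libraries of replicate 2 lay above the G2 library of replicate 3.

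SREBF2 went the other way. Its rescaled TPM was 263, 254, 262, 246, 259.8 and 254 in replicate 2, against 181, 194, 222, 200.1, 188 and 184 in replicate 3. SCAP fell into the same order, with 139 to 159 in replicate 2 and 94.9 to 109 in replicate 3.

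INSIG2 had 257, 278, 205, 275, 311 and 266 rescaled TPM in replicate 2 and 162, 173, 150.0, 109.9, 147 and 114 in replicate 3. All values of INSIG2 and of SREBF2 in replicate 3 lay under those of replicate 2. SREBF1 did not share this order: its range was 144 to 183 in replicate 2 and 144 to 197 in replicate 3.

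As medians over the 6 fractions, replicate 3 minus replicate 2 on the log2(TPM + 1) scale was 0.91 for STARD4, 0.83 for both MVD and MVK, 0.73 for IDI1, 0.64 for ACAT2 and 0.49 for HMGCS1. It was -0.78 for INSIG2, -0.59 for SCAP, -0.56 for DHCR7 and -0.35 for SREBF2. In folds of TPM + 1, STARD4 was 1.88-fold higher and INSIG2 1.71-fold lower in replicate 3. The mean over the 19 enzymes of log2(rescaled TPM + 1) was 6.45 to 6.63 in the libraries of replicate 2 and 6.63 to 7.04 in those of replicate 3. These ranges met, with 6.629 in S3 replicate 2 and 6.627 in S4 replicate 3. Most of the genome moved too: on rescaled TPM the median difference was 0.18 over all genes and 0.14 over the members. On TPM as deposited it was 0.16 over all genes and 0.26 over the members.

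Other measures moved with the numbers too. Mitochondrially encoded genes took 8.66% to 16.7% of the TPM in replicate 2 and 2.22% to 9.97% in replicate 3. The 8 hepatocyte markers summed to 6676 to 10030 TPM in replicate 2 and 3370 to 5306 TPM in replicate 3, and the 5 leukocyte markers, nearly all from LYZ, to 339 to 445 and 175 to 211 TPM. The part of these shifts in the difference of the members was not tested, and fewer cells of a kind and less RNA per cell cannot be told apart in such samples.

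Of the higher members with a promoter window, all 8 held CCAAT, of the 4 lower members 2 held it, and of the 9 tested members of mixed sign 4 held it. Among all 27305 genes with a window 39.7% held it, and among the 24 members with a window 17 did. GGGCGG was likewise in all 8 higher members, and also in all 4 lower and in 7 of the 9 mixed ones. CACGTG was in 1 member of each group. The groups come from these same libraries, and a link between a word and the direction was not tested. The higher group is that of TPM as deposited, which HMGCS1 and HSD17B7 left with median-ratio scaling. Of these CCAAT words, only those of HMGCS1, MVD, STARD4 and SREBF2 are shown in the promoters above, and INSIG2 had none in its printed stretch. The promoters of the other genes counted are not printed.

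**Figure D4:**
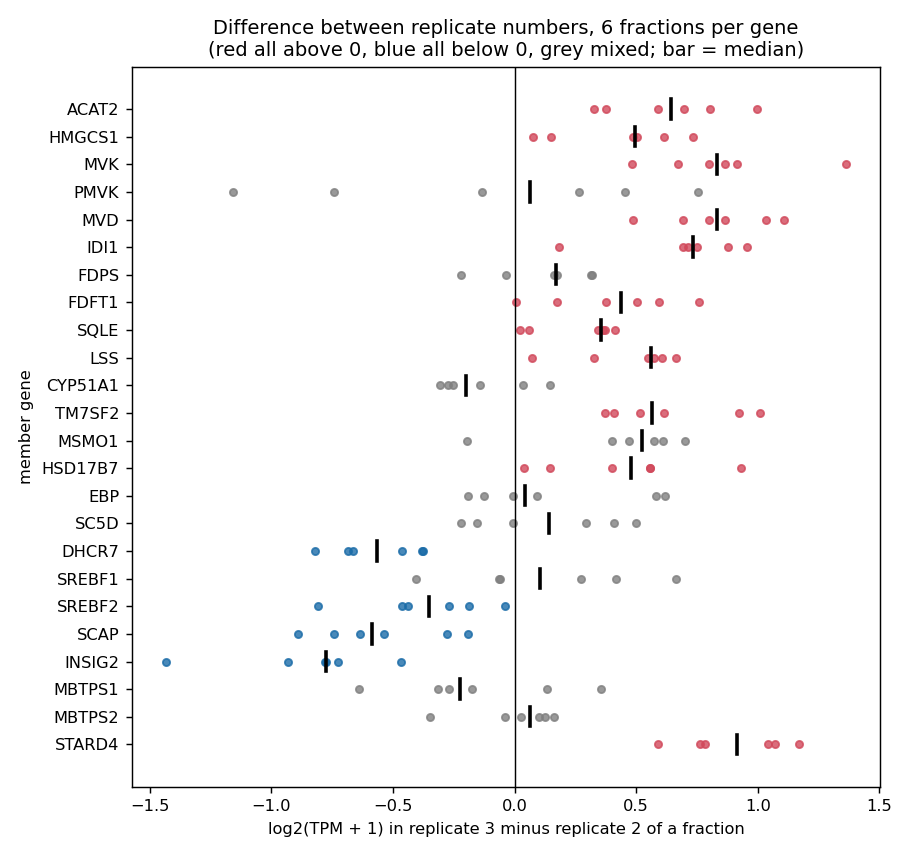
Difference in log2(TPM + 1) between replicate 3 and replicate 2 (horizontal axis) in each of the 6 fractions (points) for 24 members (rows), with the median as a black bar. The 11 genes in red are above 0 in all 6 fractions, the 4 in blue below, and the 9 in grey on both sides.

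Sorted and bulk libraries differed in most genes. The 4 endothelial markers were among the genes called higher in sorted libraries on rescaled TPM, and their part in the differences of the members was not tested. On rescaled TPM, limma called 71.5% of the 13019 protein-coding genes tested between the mean of the 6 sorted fractions and bulk. Of 25 members tested, 17 (68%) were higher in the sorted libraries, where 55.1% of all genes were, and 2 (8%) were lower, where 16.5% were. The member median was 1.13 on the log2(rescaled TPM + 1) scale and that of all genes 0.79.

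These calls depend on the scaling. With median-ratio scaling 13 members were higher, beside 36.2% of all genes, and 6 lower, beside 33.8%. The median of all genes was then 0.11, after 0.79 before, and that of the members 0.38. On TPM as deposited 2 members were higher, beside 23.1% of all genes, and 19 lower, beside 57.8%, with medians of -0.99 for all genes and -1.45 for the members. On recovered reads, limma's voom called 13 members higher, beside 40.6% of all genes, and 6 lower, beside 35.3%. The directions below hold for the rescaled values.

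FDFT1, the gene that commits farnesyl diphosphate to sterols, stood apart. It had 1.96, 1.3 and 0.912 rescaled TPM in the bulk libraries, from 47, 28 and 20 reads, against a lowest, median and highest of 59.7, 73.2 and 125 in the sorted ones. As for APOB, such low bulk values cannot be read as near absence of the transcript. FDFT1 also overlaps another annotated gene, and whether reads shared with that neighbour were kept or dropped is not given. Its values are thus uncertain in either direction, and no scaling changes which reads were counted. The sorted libraries were higher by 5.08 ± 0.22 on the log2(rescaled TPM + 1) scale (SE, limma adjusted p = 4.76e-09), and this call held with median-ratio scaling (4.56, adjusted p = 4.27e-09) and on TPM as deposited (2.42, adjusted p = 3.41e-07).

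LSS had 9.2, 8.26 and 8.49 rescaled TPM in bulk and 85.7 to 153 in sorted libraries, a difference of 3.60 ± 0.18 (limma adjusted p = 1.42e-08). MVD had 52.5, 38.9 and 50.02 in bulk and 301 to 673 in sorted libraries, a difference of 3.18 ± 0.30 (limma adjusted p = 1.77e-06). For both genes every sorted library lay above every bulk library. LSS, and CYP51A1 described next, overlap other annotated genes, so the limit given above for such genes applies to them, while MVD overlaps none. On TPM as deposited LSS kept its call (1.03, limma adjusted p = 0.000406), and MVD differed by 0.59 (adjusted p = 0.0944).

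CYP51A1 differed by 2.32 ± 0.19 (limma adjusted p = 6.76e-07), with bulk values of 4.42, 2.14 and 5.06 rescaled TPM. HSD17B7 followed with 2.10 ± 0.18, MVK with 1.86 ± 0.32 and TM7SF2 with 1.83 ± 0.23. HMGCS1 (1.68 ± 0.18) and FDPS (1.66 ± 0.11) were higher too, HMGCS1 with 207, 214 and 201 rescaled TPM in bulk. On TPM as deposited the difference of CYP51A1 was near 0 (0.000898, limma adjusted p = 0.997). Those of HSD17B7 (-0.43), MVK (-0.64), TM7SF2 (-0.72), HMGCS1 (-0.91) and FDPS (-0.93) were below 0 on that scale.

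STARD4 (1.56), EBP (1.19), SQLE (1.13), MSMO1 (1.01), DHCR7 (0.59) and MBTPS1 (0.51) were also called higher on rescaled TPM, and all 6 turned on TPM as deposited. With median-ratio scaling DHCR7 and MBTPS1 turned as well, MSMO1 lost its call (0.26, limma adjusted p = 0.101), and DHCR7 lost its call without any 1 of the 3 bulk libraries (limma adjusted p = 0.0730 to 0.108) and without replicate 2 of G1, S1 or S3 (0.0521 to 0.0522). SREBF1 differed by 1.58 ± 0.12 and SREBF2 by 0.80 ± 0.16 (limma adjusted p = 2.74e-07 and 0.000666), with bulk values of 59.3, 44.4 and 58.4 for SREBF1 and 129, 125 and 130.2 rescaled TPM for SREBF2. With median-ratio scaling SREBF1 differed by 0.83 (limma adjusted p = 2.51e-05) and SREBF2 by 0.05 (adjusted p = 0.843). Both were lower in sorted libraries on TPM as deposited (-0.97 and -1.76).

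The lower pair was GGPS1, at 10.4, 16 and 14.7 rescaled TPM in bulk (-0.80 ± 0.26, limma adjusted p = 0.0144), and MBTPS2, at 24, 26.5 and 25.1 (-0.68 ± 0.15, limma adjusted p = 0.00128). All sorted libraries of MBTPS2 (11 to 19.6) and of GGPS1 (4.08 to 9.78) lay under the bulk ones. The difference of GGPS1 was -0.69 without bulk replicate 2 (limma adjusted p = 0.0814) and -0.74 without bulk replicate 3 (0.0664).

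ACAT2 (0.06 ± 0.23), IDI1 (0.10 ± 0.26), SC5D (0.20 ± 0.11), SCAP (0.21 ± 0.21), INSIG2 (0.43 ± 0.33) and PMVK (-0.35 ± 0.23) did not pass the test. Their sorted and bulk values overlapped, as for IDI1, with 129, 134 and 122 rescaled TPM in bulk against 93.9 to 220.5 in sorted libraries. With median-ratio scaling ACAT2 (-0.69, limma adjusted p = 0.00304), IDI1 (-0.65, 0.0126), SC5D (-0.54, 0.000527) and PMVK (-1.08, 0.00187) were called lower in sorted libraries. All 6 were called lower on TPM as deposited, from -2.13 for INSIG2 to -2.70 for PMVK. On rescaled TPM SC5D overlapped least, with 59.7, 61.7 and 54.7 in bulk against 61.5 to 93.4.

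**Figure D5:**
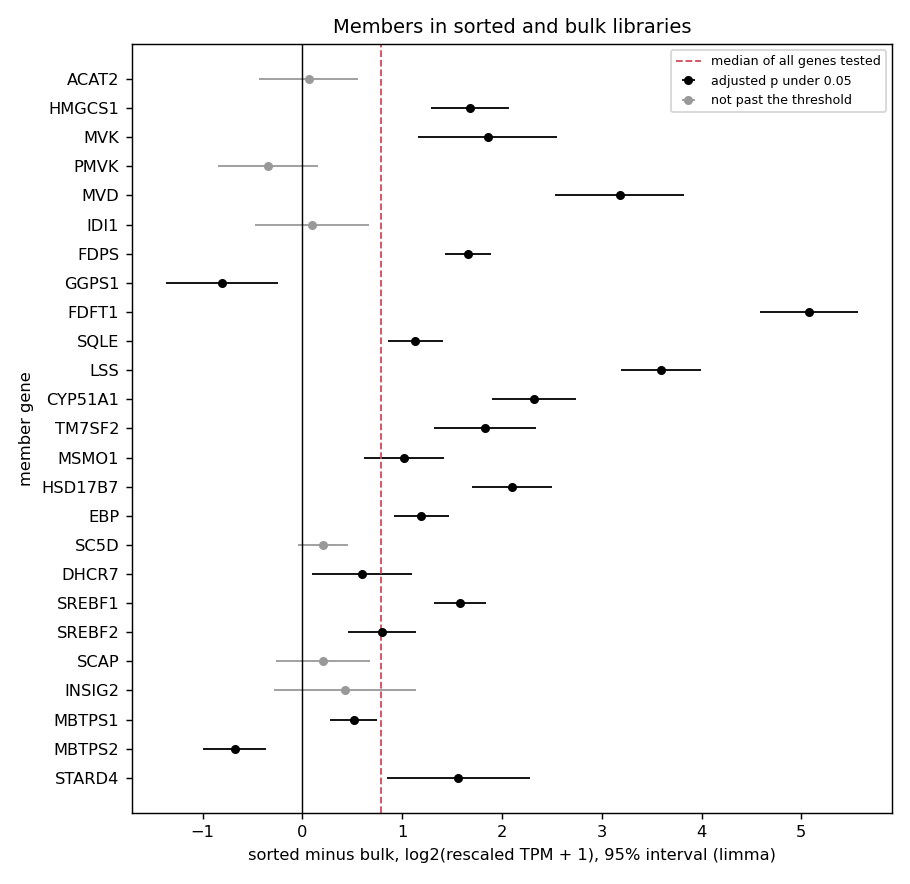
Sorted minus bulk difference in log2(rescaled TPM + 1) of 25 members (rows), as points with 95% intervals from limma, black where the adjusted p was under 0.05 and grey otherwise, with the median of all genes tested (0.79) as a dashed red line. FDFT1, LSS and MVD lie farthest to the right, and GGPS1 and MBTPS2 are below 0.

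Neighbouring pathways were read from lists of related genes. Between sorted fractions, limma without the replicate block called 0 genes of these lists in any of the 5 comparisons, as for the members. The block on recovered reads, which called some members, was not read for these lists. The differences between sorted and bulk libraries below are on the log2(rescaled TPM + 1) scale, with SEs where given, and they too compare kit and sorting together. The shares of all genes called on this scale, 55.1% higher and 16.5% lower, apply to each list. For the list counts with median-ratio scaling the shares of all genes were 36.2% higher and 33.8% lower. For those on TPM as deposited they were 23.1% higher and 57.8% lower.

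Among 13 tested lipogenic genes, the fatty acid targets of SREBP, 9 were higher in sorted than in bulk libraries and 0 lower, with a median of 0.91 beside 0.79 for all genes. ACACA, acetyl-CoA carboxylase, had 1.73, 1.3 and 1.12 rescaled TPM in bulk against 14.4 to 52.7 in sorted libraries, and differed by 3.81 ± 0.31. ACSS2 (2.68), FADS2 (2.46), FASN (1.97 ± 0.12), LPIN1 (1.79), ACLY (0.99), ACSL3 (0.91), FADS1 (0.74) and SLC25A1 (0.53) were higher as well. SCD, the desaturase gene, and FASN, fatty acid synthase, had the highest levels of the list, with sorted medians of 1830 and 1392 rescaled TPM.

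SCD differed from bulk by -0.12 ± 0.18, which did not pass. With median-ratio scaling 5 lipogenic genes were higher and 4 lower, and on TPM as deposited 1 was higher (ACACA, 1.32) and 10 lower. All of the 9 except ACACA and ACSS2 turned below 0 on TPM as deposited, FASN to -0.63, and with median-ratio scaling FADS1 (-0.00526) and SLC25A1 (-0.22) did.

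Of 15 tested genes of sterol uptake, storage and efflux, 6 were higher and 4 lower, with a median of 0.03. The 6 were the exporter genes ABCG5 (2.39 ± 0.09), ABCA1 (1.25 ± 0.14) and ABCG8 (1.21), the late endosome carrier STARD3 (1.15) and the sterol-sensing receptors NR1H3 (1.06) and NR1H2 (0.84). The highest levels belonged to ABCA1, which loads cholesterol on apolipoprotein A-I, with a sorted median of 252, and ABCG5, with 203 against 37.1, 38.8 and 37.1 rescaled TPM in bulk.

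The lower genes were NPC2, the lysosomal sterol carrier (-1.63 ± 0.16), TMEM97 (-0.97), SOAT1, which esterifies cholesterol (-0.45), and the lysosomal lipase LIPA (-0.45). NPC2 had 39.7 to 83.9 rescaled TPM in sorted libraries, all under the 179, 188 and 194 of bulk. With median-ratio scaling 5 genes of this list were higher and 8 lower, and on TPM as deposited 0 were higher and 14 lower, with all of the 6 higher genes turned below 0 (ABCG5 -0.17, ABCA1 -1.32).

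Of 7 tested genes of retention and degradation in the endoplasmic reticulum, 2 were higher and 2 lower, with a median of 0.06. FBXW7, whose product marks nuclear SREBP for degradation, differed by 1.94 ± 0.23 and ERLIN2 by 0.66. SPRING1, needed for SCAP and SREBP function (-1.46 ± 0.17), and ERLIN1 (-1.14) were lower.

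ERLIN1 and MARCHF6, a ubiquitin ligase of this system, had the highest levels, with sorted medians of 143 and 124 rescaled TPM, and MARCHF6 differed by 0.19, which did not pass. With median-ratio scaling 1 gene was higher and 5 lower, with a median of -0.61, and on TPM as deposited 0 were higher and 6 lower. FBXW7 turned on TPM as deposited (-0.46) and ERLIN2 under both (-0.07 and -1.79). The differences of SPRING1 and ERLIN1 were -2.20 and -1.89 with median-ratio scaling.

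Of 12 genes that use isoprenoids, 6 were higher and 3 lower, with a median of 0.72. The higher genes were the prenyltransferase subunits RABGGTA (4.03 ± 0.57), RABGGTB (1.62), PGGT1B (1.01) and FNTA (0.88), with COQ2 of ubiquinone synthesis (0.85) and DHDDS of dolichol synthesis (0.81). RABGGTA was uneven in bulk, at 4.72, 0.207 and 1.9 rescaled TPM, against 19.3 to 100.5 in sorted libraries. RABGGTB and PDSS1 had the highest levels, with sorted medians of 462 and 91.1, and PDSS1 differed by 0.63, which did not pass.

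ICMT, which methylates prenylated proteins, was lower by limma (-2.22 ± 0.11), with 28.6 to 47.7 rescaled TPM in sorted libraries against 178, 195 and 189 in bulk. NUS1 (-1.16) and PDSS2 (-0.46) were lower too. With median-ratio scaling 2 genes of this list were higher, RABGGTA (3.53) and RABGGTB (0.87), and 5 lower. On TPM as deposited 1 was higher, RABGGTA (1.48), and 11 lower, so the other 5 higher genes turned there (RABGGTB -0.96).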

How the data were processed

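RNA was measured in 15 HepG2 libraries. The authors deposited 1 table per library with values on the log2(TPM + 1) scale, as the values themselves show; the log2 values were turned back to TPM, although the tests had been laid out for TPM files. Per the submitters' processing notes, the tools were HISAT2, BWA, SAMtools, Trimmomatic and cutadapt, with hg38 and no roles stated. The counter, annotation and strand setting were not given in the sources used here. Of 78932 identifiers, 61481 matched a symbol, and 19120 were protein-coding.

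Members and lists were chosen with earlier results of these data known. Sorted libraries were compared with limma 3.58.1 (R 4.3.3) on log2(TPM + 1) with an intensity trend, over genes with a mean of at least 1 TPM, as a means model of the 6 fractions. Sorted and bulk libraries were compared after the protein-coding genes of each library were rescaled to a sum of 1000000. P-values were adjusted by Benjamini and Hochberg over all genes tested, at 0.05. Of the models, only that of G2 against G1 on TPM without the replicate block was run on simulated reads. Those reads held no difference between replicate numbers, so the run cannot show how the fit behaves with one.

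For 50310 of 50310 genes detected in 3 or more libraries, the steps between TPM values gave whole reads. These reads gave the depths and, with limma's voom, an alternative test chosen after seeing the data. No 2 replicates agreed within sampling noise (lowest chi-square per degree of freedom 2.85). Other alternatives were a pseudocount of 0.1, no minimum or a minimum of 5 TPM, median-ratio scaling, rescaling, no trend, the replicate number as a block, and leaving out each library.

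Every member could be named. Full statistics are given for members past the threshold (up to 10) or else for the 4 with the largest differences, and the pairs SREBF1 and SREBF2, and INSIG1 and INSIG2, are given where tested. Genes of the lists are named where called or among the 2 highest mean levels. A gene of 1 list is not reported here and is left out of that list's counts. ACAT2, FDFT1 and SQLE had no promoter window. The 95% intervals are limma's without the replicate block, from the spread between libraries, which includes the difference between replicate numbers. The limit of 3 reads covers counting error only.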

Additional observations from a re-analysis of the deposited data

How the results depend on the processing

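In all 5 comparisons of sorted fractions, 0 members were called under every alternative without the replicate block, and without any 1 library. Moving were the medians over members. In S against G1 (-0.19) the median was 0.00390 with median-ratio scaling, -0.01 with rescaled TPM (-0.0119, also with the replicate block) and 0.0264 on recovered reads (0.0252 with the block). Leaving out 1 library gave medians of -0.34 to 0.10 in G2 against G1, -0.24 to -0.15 in S against G1, -0.21 to 0.37 in G2 against S and -0.0834 to 0.0256 for the slope. Each of these fits, made without the block, leaves 1 fraction with 1 replicate number, so the ranges also carry the difference between the numbers.

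The labels do not say what the replicate numbers mark, and each comparison holds 2 same-numbered pairs. Deviations of libraries with the same number correlated at 0.308 to 0.379 over the 15 pairs of fractions. The replicate block left 0 members called between fractions on deposited TPM, and 18 higher and 2 lower against bulk on rescaled TPM (median 1.13), with INSIG2 called (0.43, limma adjusted p = 0.0484). Counts over all genes with the block on rescaled TPM and on recovered reads were 174 and 663 for any difference among fractions and 249 and 731 for the slope, beside 3 and 0. On recovered reads with the block, 2 members were called among fractions and 4 slopes were lower, as given with those results, with a member median of -0.0744 for the slope. The median of G2 against S was -0.0544 there. The cause was not tested.

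Against bulk, scaling moved most results. The median over members was 1.01 with no minimum level. It was 0.38 with 6 members lower with median-ratio scaling and 0.39 with 6 lower on recovered reads. DHCR7 (-0.15) and MBTPS1 turned under both (-0.24 and -0.23). On TPM as deposited 2 members were higher and 19 lower, with a median of -1.45. HMGCS1 (-0.91), MVK (-0.64), FDPS (-0.93), SQLE (-1.45), TM7SF2 (-0.72), MSMO1 (-1.56), HSD17B7 (-0.43), EBP (-1.38), DHCR7 (-1.93), SREBF1 (-0.97), SREBF2 (-1.76), MBTPS1 (-2.03) and STARD4 (-0.99) turned there. Leaving out 1 library gave 16 to 17 members higher, 1 to 3 lower and a median of 1.09 to 1.17, with 1 lower without bulk replicate 2 or 3 (GGPS1 lost) and 3 without S3 replicate 2 (PMVK added). Between the replicate numbers, 7 members were higher in all 6 fractions with median-ratio scaling.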
